A study of Mus musculus with 14 samples.

Results

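Translation efficiency was described here for control animals: how many ribosome footprints each gene gave for its RNA level in the cerebral cortex of control mice. Ribosome profiling sequences the short stretches of mRNA that ribosomes shield from nuclease, and these stretches are called footprints. The members were the 7 control libraries among the 14 of the study, and they comprised 3 footprint libraries (mice 1, 3 and 9) and 4 RNA libraries (mice 1, 3, 6 and 8). Mice 1 and 3 gave both kinds of library, mice 6 and 8 RNA alone and mouse 9 footprints alone. Control mice carried Rpl22flox/flox and CamKCre+. The other 7 libraries came from Fmr1X-Y; Rpl22flox/flox; CamKCre+ mice (KO), so the floxed Rpl22 alleles and the Cre were common to all groups. The Cre is named for CaMKIIa, whose promoter is active in excitatory neurons of the forebrain, and the source was labelled CAMKIIa-Ribotag brain, but the protocols name no purification of tagged ribosomes. Monosomes came from a nuclease-digested cortical lysate on a sucrose gradient, and footprint libraries were made without ligation. Total RNA was depleted of ribosomal RNA before strand-specific libraries were prepared. The study set out to profile transcription and translation in cortex with and without Fmr1. Age was not given. Each mouse number was taken as a separate animal.

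The ratio used throughout is footprint CPM (counts scaled to the same total in every library, by convention) divided by RNA CPM, called translation efficiency in the field. It rises when more ribosomes sit on each mRNA, whether they initiate more often or move more slowly, and it carries no information on absolute protein output. Neither CPM is scaled by length, and coding length was not used here, so the ratio of a gene also depends on how much of its counted RNA is translated sequence. Well-known routes to a low ratio include 5′ terminal oligopyrimidine (TOP) sequences at the start of ribosomal protein and elongation factor mRNAs, which make their translation respond to growth signals, and upstream open reading frames, which capture scanning ribosomes before the main start codon. A gene was called high when its ratio was above 2 and called low when it was below 0.5, each with an adjusted p under 0.05 in edgeR's quasi-likelihood F test. Benjamini and Hochberg's adjustment ran over all 13482 genes tested. Log2 ratios are given ± an approximate standard error (SE) from that fit, with 3 footprint and 4 RNA libraries. For genes with few footprints this value is too small. Pgk1, with 4 footprints, has ± 0.27, while exact 95% limits of its pooled ratio for counting error alone are 0.0004 and 0.00375. CPM values are listed in the order of mice 1, 3 and 9 for footprints and 1, 3, 6 and 8 for RNA.

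Across the 13482 genes tested the median log2 ratio was -0.19. Of these, 915 were called high (6.79%) and 2897 were called low (21.5%), while 9781 (72.5%) had an adjusted p under 0.05 at any size of difference. A gene could pass the count filter through RNA alone, and among the 11952 genes that passed it in each assay 846 were high and 2157 low. Footprint and RNA libraries did not overlap in CPM in 910 of the genes called high and in 2869 of those called low. Over the 11952 genes that passed the count filter in each assay, the log2 ratio of mouse 1 and that of mouse 3 had a Pearson r of 0.949 and a Spearman rho of 0.937 across genes. A second pair of estimates that shared no animal, from mouse 9 over mice 6 and 8 and from mice 1 and 3, gave 0.946 and 0.932. Genes are not independent replicates, and these values describe agreement between libraries of one design. Footprint and RNA CPM had an r of 0.875 on the log scale. The balance of calls depended on the scaling: 24.0% of the calls were high with plain library totals and 37.7% with TMM normalization, which called 1405 genes high and 2325 low and moved the median of all genes up by 0.18.

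**Figure D1:**
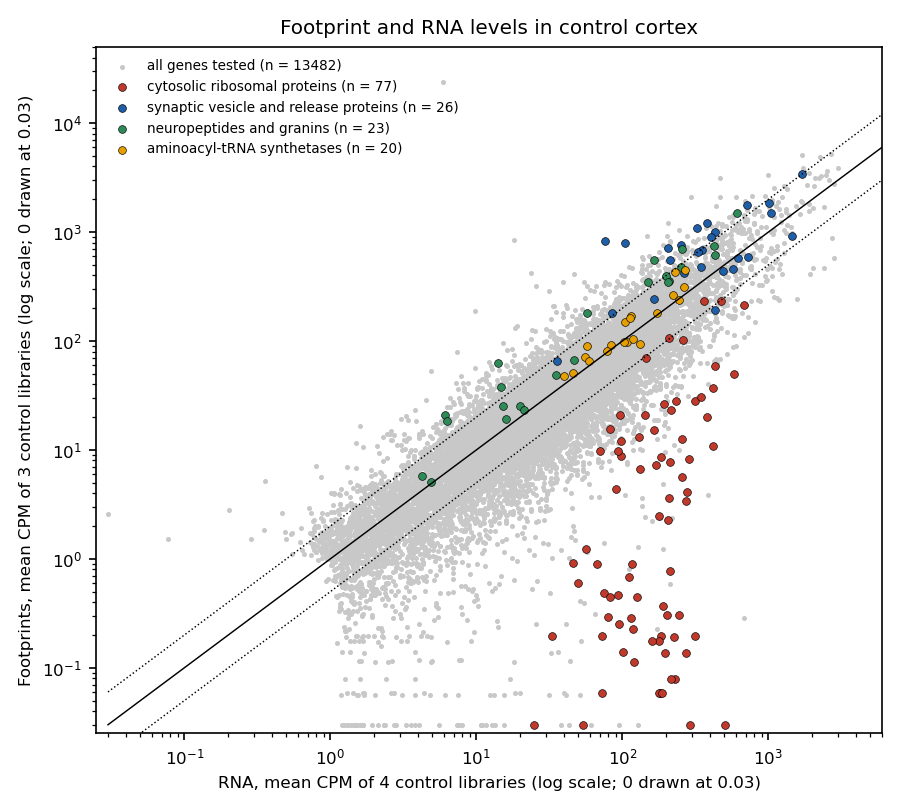
Each point is a gene, with its mean RNA level in 4 control libraries on the horizontal axis and its mean footprint level in 3 control libraries on the vertical axis, both in CPM on log scales. The solid line marks equal CPM and the dotted lines ratios of 2 and 0.5; the red ribosomal protein genes lie below the lower dotted line in nearly all cases, while the blue vesicle genes lie mostly above the solid line.

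Library totals, leaving out the gene BC048546, were 4221345 to 5882754 counts in footprints and 8992057 to 10273832 in RNA. BC048546 took 2.25% to 2.49% of the control footprints and less than 0.001% of the RNA counts, and was therefore kept out of the totals. Footprint libraries differed from each other by little more than counting noise, since the chi-square of their counts over genes, divided by its degrees of freedom, was 1.15 to 1.42, whereas pairs of RNA libraries ran from 1.99 for mice 1 and 3 to 11.8 for mice 3 and 8. Markers of cortical excitatory neurons were present in every library. Their 8 genes summed to 2262 to 2534 CPM in RNA and 4539 to 4652 CPM in footprints. Camk2a alone gave 410 to 551 CPM of that RNA and 3110 to 3212 CPM of those footprints. The median log2 ratio of the 8 genes was -0.03. RNA of mouse 8 stood apart in Ttr, the choroid plexus transthyretin gene, with 263 CPM against 3.0 to 9.68 CPM in the other RNA libraries, and the endothelial markers summed to 135 CPM there against 181 to 249 CPM elsewhere. The part of these differences in the ratios below was not tested, except where values without that library are given.

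Cytosolic ribosomal protein genes had the lowest median ratio of the lists examined. Of 80 genes listed, 77 were tested, and 75 were called low, none high and 2 neither. The exon columns gave 69 low and 2 high. Their median log2 ratio was -6.20, unchanged with genes without footprints set at their limit, with quartiles of -9.47 and -3.48. The 77 genes together held 14598 to 15899 CPM of the RNA and only 1455 to 1521 CPM of the footprints. The footprint and RNA sums did not overlap between libraries. In 39 of the 77 genes the 3 footprint libraries together held under 30 counts, and 4 had no footprint at all. When only genes that passed the count filter in each assay were kept, 37 members remained, of which 35 were called low, with a median of -3.47.

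The beginnings of these genes were examined for the pyrimidine tract that defines TOP mRNAs. Windows of 30 bases, from 15 before to 15 after the annotated start in RefSeq (assembly GRCm38.p6), were searched on the gene's own strand for an unbroken run of at least 7 C or T bases. The sequences below are shown because they set members with and without such a run, at both ends of the range of ratios, beside each other and beside the presynaptic gene Sncb. Capitals mark the longest run found. The windows are chr2:26910792-26910821 (+) for Rpl7a, chr14:18270972-18271001 (-) for Rpl15, chr11:114668565-114668594 (+) for Rpl38, chr7:3704026-3704055 (+) for Rps9, chr9:78481710-78481739 (-) for Eef1a1, chr10:128035331-128035360 (+) for Naca, chr5:65391417-65391446 (-) for Rpl9, chr7:99483695-99483724 (-) for Rps3 and chr13:54766581-54766610 (-) for Sncb.
Rpl7a: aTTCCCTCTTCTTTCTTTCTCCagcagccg
Rpl15: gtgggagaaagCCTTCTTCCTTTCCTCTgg
Rpl38: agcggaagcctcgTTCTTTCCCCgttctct
Rps9: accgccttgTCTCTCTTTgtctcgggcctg
Eef1a1: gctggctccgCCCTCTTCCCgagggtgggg
Naca: gcaactcgTTCTCTTaaagaggaaacccgg
Rpl9: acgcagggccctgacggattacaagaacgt
Rps3: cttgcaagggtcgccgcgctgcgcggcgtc
Sncb: cagtcaggcggagggggcggcgcggccacc
The presence of the run did not order the members. Rps9 and Rpl7a both have one, with log2 ratios of -0.95 and -4.37, and so have Rpl15, without a footprint, and Rpl38, with 1. Rpl9 and Rps3 have none in this window, and while Rpl9 had no footprint, the log2 ratio of Rps3 was -1.03.

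A run was found in 30 of the 56 ribosomal protein genes with a promoter in the RefSeq table (53.6%), against 18.6% of all 32851 promoters there and 22.4% of the 10025 tested genes matched to one. Ribosomal protein genes with a run had a median log2 ratio of -5.29 and the 26 without one had -6.68. Over all tested genes the medians were -0.21 with a run and -0.19 without. A run here is a match of letters near an annotated start, and its absence from a window says nothing of the mRNA's real 5′ end.

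The 2 ribosomal protein genes that were not called low had many footprints. Rpl8, a protein of the large subunit, had 227, 240.0 and 233 CPM in footprints and 357, 358, 376 and 361 CPM in RNA. Its log2 ratio was -0.64 ± 0.052, and its footprint libraries lay below all RNA libraries, although the exon columns turned the log2 ratio to 0.20. Rps9 had 108, 110.2 and 104 CPM in footprints against 196, 187, 218 and 228 CPM in RNA, with a log2 ratio of -0.95 ± 0.075 (-0.12 with the exon columns). Rps3, which binds mRNA at the entry of the small subunit, was just past the threshold at 233, 239.7 and 222 CPM in footprints and 489.7, 459, 494 and 453 CPM in RNA, with a log2 ratio of -1.03 ± 0.057, and was no longer called low with TMM normalization (-0.86) or with the exon columns (-0.25).

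At the other end, Rpl9 of the large subunit had no footprint in any library but 522, 512, 521 and 469 CPM in RNA, at least 2653-fold lower when 3 counts over the 3 footprint libraries are taken as the limit. Rpsa, the laminin receptor homologue of the small subunit, likewise had none, with 285, 286, 299.6 and 289.6 CPM in RNA and a ratio at least 1521-fold lower than 1. Rpl15 also had no footprints, against 65.5, 53.5, 51.9 and 43.5 CPM in RNA, at least 281-fold lower. Rps29 and Rpl38 had 1 footprint each in the 3 libraries together. Their pooled ratios were 0.000278 (interval 7.05e-06 to 0.00155) for Rps29 and 0.000340 (interval 8.61e-06 to 0.00190) for Rpl38, where the intervals are exact 95% limits that cover counting error only. Rpl22, whose floxed alleles all animals carried, was called low like most of its class, with 22.0, 21.4 and 18.9 CPM in footprints, 87.0, 95.5, 103 and 97.3 CPM in RNA and a log2 ratio of -2.21 ± 0.094.

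Ribosomal protein genes have many processed copies in the mouse genome. RefSeq names at least 1 pseudogene after 62 of the 77 (9 after Rpl9 and 12 after Rpsa), and how reads of identical copies were counted is not given in the sources used here, so values of single members are uncertain. The 62 genes had a median log2 ratio of -7.03, and all were called low. The 15 with no named pseudogene had a median of -4.41, and 13 of them were called low. Among all other tested genes, 226 had a named pseudogene, with a median of -1.01 and 50.9% called low, against -0.17 and 20.5% for the 13179 without, which include genes whose symbol is not in the RefSeq table. Of the 154 genes with a log2 ratio below -5, 47 were ribosomal protein genes, 70 had a named pseudogene and 49 had no footprint. The share of the low ratios that goes with such copies was not tested beyond these values.

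**Figure D2:**
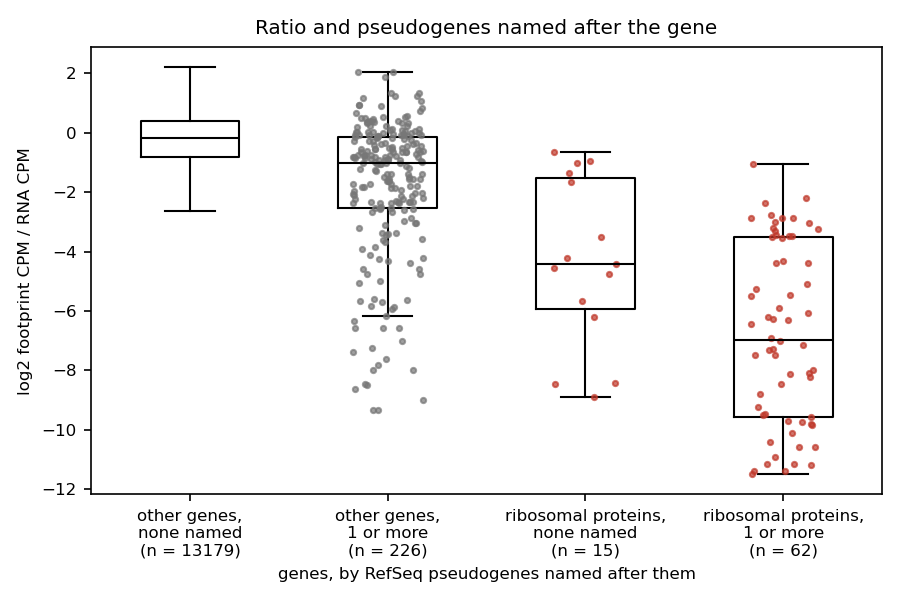
The vertical axis gives the log2 ratio of footprint to RNA CPM in control libraries for genes grouped by whether RefSeq names a pseudogene after them, with genes without footprints placed at their limit; boxes show the median and quartiles, whiskers reach 1.5 times the box, and points are single genes in all but the first group. Ribosomal protein genes lie low with and without a named pseudogene (medians -7.03 and -4.41), and other genes with one have a median of -1.01.

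Other TOP mRNAs had uneven ratios. Of 25 listed and tested, 11 were called low (44.0%, against 21.5% of all genes) and none high (against 6.79%), and the median log2 ratio was -0.60. Eef1a1, the elongation factor that carries aminoacyl-tRNA to the ribosome, had 474, 453 and 483 CPM in footprints and 2338, 2158, 2458 and 2628 CPM in RNA, a log2 ratio of -2.35 ± 0.067. Its neuronal paralogue Eef1a2, which is not a TOP mRNA of the list, had the opposite balance, with 2503, 2572 and 2583 CPM in footprints, 1098, 1041, 1094 and 1121 CPM in RNA and 1.23 ± 0.045. The footprint and RNA libraries of each gene were fully separate, and RNA was the higher one for Eef1a1 alone.

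Naca, the nascent chain binding subunit that meets proteins leaving the ribosome, had 14, 12.7 and 13.5 CPM in footprints and 193, 198, 185 and 199.5 CPM in RNA (-3.86 ± 0.080). Eef1g, an exchange factor subunit for the same elongation step, was the lowest of the list at 4.50, 5.44 and 4.62 CPM in footprints and 182, 181, 199 and 196 CPM in RNA (-5.27 ± 0.101), followed by Impdh2, an enzyme of guanine nucleotide synthesis (-4.74 ± 0.18). At the upper end, Vim (the filament protein vimentin, 0.84 ± 0.101), and Eif3a, a core subunit of the initiation factor that recruits the small subunit (0.83 ± 0.072), were above 1 in ratio without reaching the threshold, but TMM normalization, DESeq2 and the exon columns called both high. Eif3f had a pyrimidine run in its window and a log2 ratio of 0.37 ± 0.072. With the exon columns of the table in place of the plain RNA columns the list's median became 0.07 and 9 members were called low and 4 high.

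The rest of the translation machinery was close to the genome's centre. Of 44 tested initiation factors, 3 were called high (6.82%) and 11 low (25%), near the 6.79% and 21.5% of all genes, with a median of -0.05, while TMM normalization gave 8 high and 9 low and the exon columns 10 and 9. The helicase Eif4a1 was the lowest of them, at 1.18, 3.57 and 2.31 CPM in footprints and 234, 216, 213 and 207 CPM in RNA (-6.45 ± 0.15), followed by the start-codon selection factor Eif1 (-5.93 ± 0.303). Eif5b, which joins the subunits at the end of initiation, was high, with 165, 152 and 153 CPM against 63.3, 61.8, 51.3 and 41.8 CPM (1.52 ± 0.11). None of the 20 cytosolic aminoacyl-tRNA synthetases, which load amino acids onto tRNAs, was called either way in this fit. Their median was 0.20, although 5 were called high with the exon columns. Aars, the alanine enzyme, was the highest, with 433, 433 and 431 CPM in footprints and 251, 228, 227 and 216 CPM in RNA (0.91 ± 0.057). The 76 mitochondrial ribosomal protein genes, which make the ribosome of the organelle, had a median of 0.06. Of these, 2 were called high (2.63%, against 6.79% of all genes) and 8 low (10.5%, against 21.5%). With the exon columns 10 were high and 6 low.

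**Figure D3:**
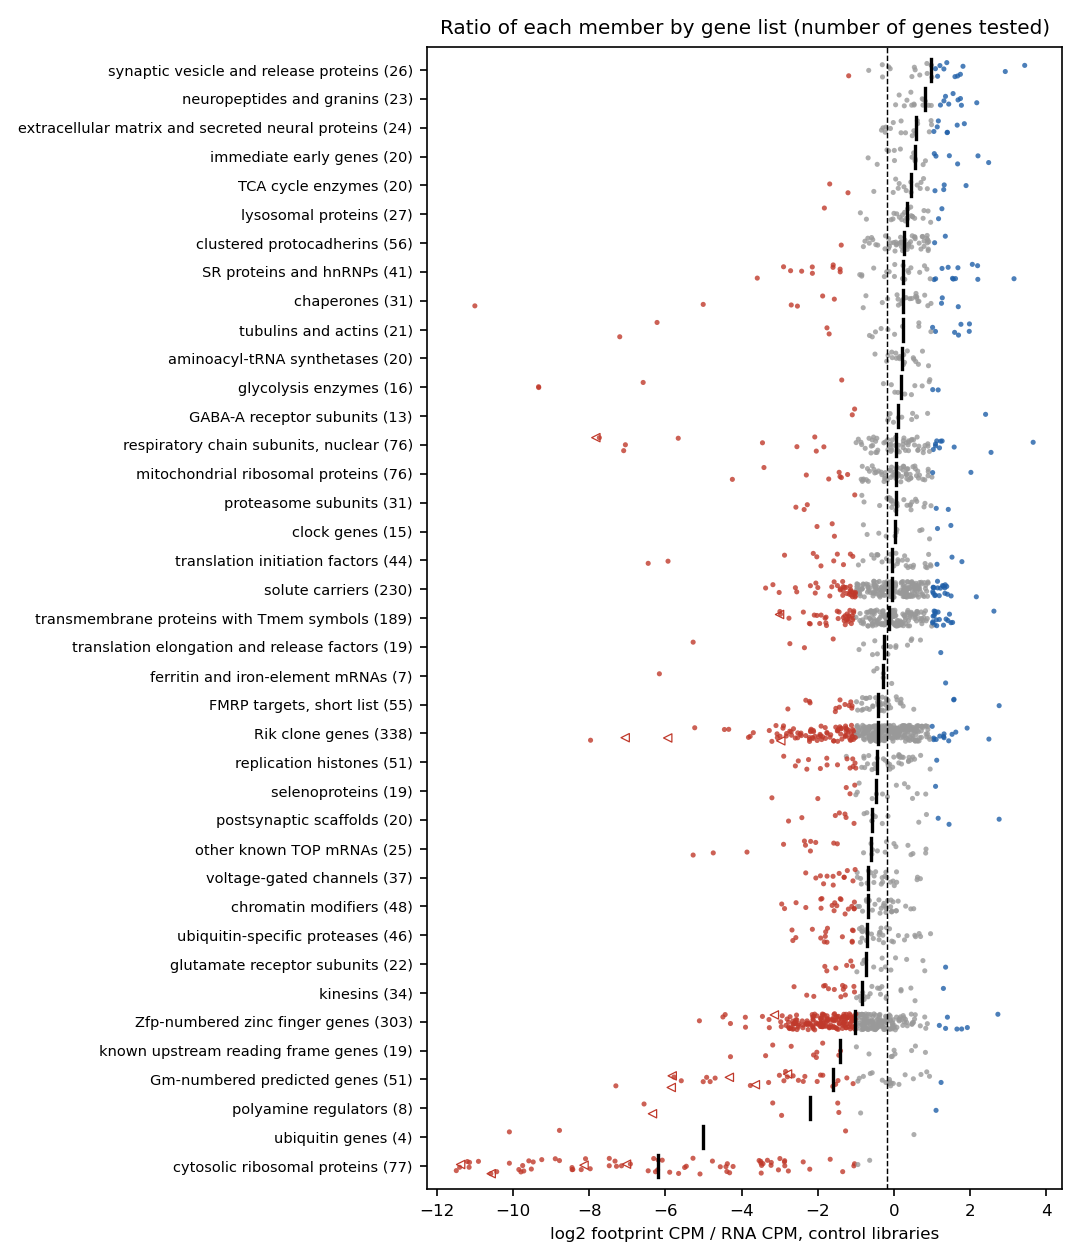
Each point is a tested gene, placed by its log2 ratio of footprint to RNA CPM in control libraries, with 1 row per gene list and the number of genes in parentheses; blue points were called high, red low and grey neither, open triangles are genes without footprints placed at their limit, black bars are list medians, and the dashed line is the median of all genes tested (-0.19). Medians run from -6.20 in ribosomal proteins to 0.98 in vesicle and release proteins.

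Genes known for upstream open reading frames were called low in 10 of 19 cases (52.6%, against 21.5% of all genes) and high in none, with a median of -1.40. Among the 16 that passed the count filter in each assay 7 were low, with a median of -0.82. Ppp1r15a, the stress-induced phosphatase subunit that restores initiation, was the lowest, with 0.948, 0.510 and 1.42 CPM in footprints and 18.9, 17.0, 18.5 and 21.4 CPM in RNA (-4.29 ± 0.24). Atf4, the stress response transcription factor that is the textbook case of control by upstream frames, had 35.3, 31.4 and 34.9 CPM in footprints and 123, 123, 138 and 169.8 CPM in RNA (-2.04 ± 0.12); it was named for that role after its value was seen. Footprint libraries lay below every RNA library for both genes. Slc35a4, a transporter gene whose upstream frame is itself translated, followed at -3.37 ± 0.25. The arginine transporter Slc7a1 was the highest of the list at 0.83 ± 0.087 and was called high with TMM normalization, but turned to -0.12 with the exon columns.

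Polyamine genes were mostly low. Of 8 tested, 6 were called low (75%, against 21.5% of all genes) and 1 high (12.5%, against 6.79%), with a median of -2.21, and of the 6 that passed the count filter in each assay 4 were low. The exon columns gave 5 low and 2 high (median -1.55). Odc1, the rate-limiting enzyme of polyamine synthesis, had 4.26, 7.82 and 6.23 CPM in footprints against 60.8, 52.0, 55.5 and 59.4 CPM in RNA (-3.18 ± 0.14), and Azin1, the antizyme inhibitor that protects it, had 82.9, 80.6 and 86.8 against 233, 253, 232 and 191 CPM (-1.45 ± 0.087). Srm, spermidine synthase, was high at 55.7, 65.4 and 68.5 CPM in footprints and 26.1, 29.1, 32.9 and 29.9 CPM in RNA (1.11 ± 0.099), but not when glmTreat tested against a ratio of 2 (adjusted p = 0.232 in edgeR). Oaz1, the antizyme whose synthesis needs a ribosomal frameshift, had 0.711, 1.53 and 1.6 CPM in footprints and 118, 123, 131 and 136 CPM in RNA (-6.56 ± 0.15), but its exon column held almost no counts, and with the exon columns the direction turned (1.91). Its value therefore depends on how its RNA was counted. Sms, spermine synthase, had no footprint against 18.5, 17.1, 14.3 and 11.8 CPM in RNA, at least 80.9-fold lower.

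Small regulated sets gave mixed results. Among 7 genes with iron-responsive elements, 1 was called low and 1 high, and the low one did not pass the count filter in footprints. Ftl1, the ferritin light chain, had 2.37, 3.40 and 0.889 CPM in footprints and 138, 136, 178 and 187 CPM in RNA (-6.16 ± 0.23), and RefSeq names 2 pseudogenes after it. Epas1, a hypoxia-inducible transcription factor, was high with 159, 163 and 159.9 against 65.7, 60.5, 66.6 and 58.1 CPM (1.36 ± 0.065), and the transferrin receptor Tfrc was near 1 in ratio (-0.28 ± 0.073). Of 19 selenoprotein genes, which recode a stop codon as selenocysteine, 5 were called low (26.3%) and 1 high (5.26%), near the shares of all genes, with a median of -0.46. TMM normalization or DESeq2 left 3 low. Gpx4, the lipid peroxide reductase, had 22.7, 19.7 and 21.5 CPM in footprints and 168, 171, 197 and 246 CPM in RNA (-3.20 ± 0.14). Sephs2, which makes the selenium donor, followed at -2.0 ± 0.093, and Txnrd2, the mitochondrial thioredoxin reductase, was high at 1.09 ± 0.11, but not when glmTreat tested against a ratio of 2 (adjusted p = 0.332 in edgeR).

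Zinc finger transcription factors formed a large low family. Of 303 tested genes with a Zfp-numbered symbol, 157 were called low (51.8%) and 7 high (2.31%), against 21.5% and 6.79% of all genes tested, and the median was -1.03. Their summed level was 4398 to 4519 CPM in footprints and 8993 to 9272 CPM in RNA. Only 2 of the 303 have a pseudogene named after them, and the count of low calls was 120 of 261 when genes had to pass the count filter in each assay. Zfp932, one of the lowest, had 0.948, 0.510 and 1.78 CPM in footprints and 24.5, 28.6, 27.4 and 18.2 CPM in RNA (-4.49 ± 0.298), and Zfp319 went the other way with 33.2, 34.8 and 30.1 against 8.51, 8.79, 8.79 and 8.27 CPM (1.93 ± 0.11). Zfp319 overlaps other protein-coding genes in RefSeq, and whether counting used strand is not given.

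Predicted genes with Gm numbers were low in 30 of 51 cases (58.8%, against 21.5% of all genes). However, with enough footprints to pass the filter in that assay only 18 remained, with a median of -0.12 and 4 called low. Of 48 tested chromatin modifiers 19 were called low (39.6%, against 21.5% of all genes) and none high, with a median of -0.68, and 15 were low with TMM normalization. Tet1 and Tet2, which oxidise methylated cytosine, were the lowest. Tet1 had 7.34, 7.31 and 8.18 CPM in footprints and 59.1, 55.7, 56.0 and 64.5 CPM in RNA (-2.95 ± 0.11), and Tet2 had -2.87 ± 0.13. Dnmt3a, which lays down the methyl mark, was the highest of the list at 126, 130.4 and 119 CPM in footprints and 92.1, 96.1, 83.1 and 77.9 CPM in RNA (0.52 ± 0.077) without being called, and turned to -0.67 with the exon columns. With the exon columns, 10 of the 48 were called low.

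Kinesin motors were low in 14 of 34 cases (41.2%, against 21.5% of all genes) and high in 1, with a median of -0.84. Only 23 passed the count filter in each assay, and 8 of these were low. Kif5a, the neuronal motor of fast axonal transport, had 575, 590.4 and 570.4 CPM in footprints and 2494, 2526, 3017 and 3273 CPM in RNA (-2.29 ± 0.088). Kif2a, which depolymerises microtubules, was the one called high, with 227, 223 and 227 against 97.2, 101, 90.0 and 78.7 CPM (1.30 ± 0.076). Of 46 ubiquitin-specific proteases, 15 were called low (32.6%) and none high (median -0.72), and Usp31 was the lowest at -2.68 ± 0.071. The kinesins called low were 8 of 34 with the exon columns and 9 with glmTreat. For the proteases the exon columns gave 12 low and 3 high (median -0.40), and TMM normalization 11 low and 1 high.

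Of 37 voltage-gated channel subunits, 13 were called low (35.1%, against 21.5% of all genes) and none high (against 6.79%), with a median of -0.67, and 17 were called low with the exon columns. Kcnq3, a subunit of the M current, had 41.2, 41.6 and 37.5 CPM in footprints and 199.8, 187, 209.9 and 202 CPM in RNA (-2.31 ± 0.072). Scn1a, the sodium channel subunit prominent in interneurons, had 109, 93.7 and 100.3 against 416, 436, 418 and 400.4 CPM (-2.05 ± 0.065). The pacemaker subunit Hcn2 was next at -1.93 ± 0.074, and the highest of the list was the calcium channel auxiliary subunit Cacna2d2, at 0.69 ± 0.060.

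Among 22 glutamate receptor subunits 6 were called low (27.3%) and 1 high (4.55%), shares near those of all genes, with a median of -0.75. With TMM normalization or DESeq2, 4 were low, with glmTreat 3, and the exon columns gave 4 low and 3 high. The obligatory NMDA receptor subunit Grin1 was the one called high, with 1341, 1412 and 1376 CPM in footprints and 545, 505, 557 and 544 CPM in RNA (1.36 ± 0.050). Its partner subunits Grin2c and Grin2a lay on the other side. Grin2c had 20.6, 20.4 and 18.7 CPM in footprints and 61.0, 66.7, 68.6 and 82.9 CPM in RNA (-1.81 ± 0.12), and Grin2a had 70.6, 68.5 and 71.3 against 199.9, 192, 207 and 208 CPM (-1.52 ± 0.061), although Grin2a was no longer called with the exon columns (-0.69). The kainate receptor subunit Grik5 was low at -1.76 ± 0.071. GABA-A receptor subunits centred higher, at 0.12, with 1 of 13 called high and 2 low. Gabra2 had 239, 233 and 243 CPM in footprints and 147, 163, 119.7 and 86.8 CPM in RNA (0.88 ± 0.15), and reached 1.02 and a call without the RNA of mouse 3, while Gabra4 had -1.09 ± 0.076 and was not called with TMM normalization (-0.92) or with mouse as a block (-0.97). No subunit of this list was low with TMM normalization, DESeq2, glmTreat or the block, but the exon columns gave 4 high and 3 low, Gabra4 among them (-1.44), with a median of -0.03.

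Postsynaptic scaffolds and kinases spanned a wide range, with 7 of 20 called low (35%, against 21.5% of all genes), 3 high (15%, against 6.79%) and a median of -0.58. The exon columns gave 5 low and 1 high. The 3 called high were signalling proteins. Camk2a, the alpha subunit of calcium/calmodulin kinase II, had 3109.7, 3175 and 3212 CPM in footprints and 429.9, 410.5, 476 and 551 CPM in RNA (2.76 ± 0.081). Nrgn, the calmodulin-binding protein neurogranin, had 1188, 1252 and 1227 against 442, 444, 471 and 436 CPM (1.45 ± 0.049), and the kinase's beta subunit Camk2b was at 1.16 ± 0.046. Neither Nrgn nor Camk2b stayed past the threshold with the exon columns (0.76 and 0.67).

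The low side of that list began with Dlgap3, Ddn and Shank1. Dlgap3, which links the PSD-95 and Shank layers, had 67.5, 69.7 and 67.4 CPM in footprints and 403, 401, 489 and 565 CPM in RNA (-2.77 ± 0.12). Ddn, the dendritic protein dendrin, had 153, 152 and 147 against 699.5, 747, 846 and 925 CPM (-2.42 ± 0.089). Shank1 followed at -1.54 ± 0.070, and at -0.85 with the exon columns. Several of these mRNAs are bound by FMRP, the protein whose gene is deleted in the KO mice. On a short list of 55 tested FMRP targets 13 were called low and 3 high, with a median of -0.43; the shares, 23.6% and 5.45%, were near the background of 21.5% and 6.79%. The exon columns gave 8 low and 4 high (median -0.19). Adcy1, a calcium-stimulated adenylyl cyclase, was the lowest at 78.2, 74.1 and 73.5 CPM in footprints and 514, 509, 502 and 544 CPM in RNA (-2.78 ± 0.060). Chd3, a chromatin remodeller, and Apc, a regulator of Wnt signalling, followed at -2.31 ± 0.055 and -2.22 ± 0.053. Fmr1 itself, measured in controls, had 112, 114 and 115 CPM in footprints and 89.4, 87.8, 82.9 and 71.2 CPM in RNA, a log2 ratio of 0.46 ± 0.078.

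Presynaptic vesicle and release proteins had a median of 0.98, the highest among the lists other than the 5 hypothalamic markers (1.06). Of 26 tested, 11 were called high (42.3%, against 6.79% of all genes) and 1 low. Their summed level was 22234 to 22283 CPM in footprints and 12531 to 12861 CPM in RNA. Vamp2, the vesicle SNARE of neurotransmitter release, had 821, 822 and 835 CPM in footprints and 73.2, 74.3, 84.0 and 74.8 CPM in RNA (3.43 ± 0.059). Sncb, the small presynaptic protein beta-synuclein, had 776, 807 and 778 against 109, 93.6, 111 and 102 CPM (2.92 ± 0.062). All footprint values of these genes lay far above all RNA values.

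The list as a whole depended on the RNA columns used. The plain RNA columns of Vamp2 held only 11.4% of its exon-column counts, while they held a median of 64.9% over all genes tested. With the exon columns in their place the list's median fell to 0.23 and 7 of 26 were called high; Vamp2 remained high at 1.14 and Sncb at 2.95. Cplx2, the complexin that clamps the release machinery, had 712, 716 and 732 CPM in footprints and 245, 263, 173 and 139 CPM in RNA (1.81 ± 0.15), and turned to -0.22 with the exon columns. The synapsin Syn1, which tethers vesicles, had 1079, 1083 and 1090.3 against 349, 371, 317 and 258 CPM (1.74 ± 0.091). Among the large active zone scaffolds, Rims1 was called low, with 195, 194 and 183 CPM in footprints and 404, 405, 456 and 472 CPM in RNA (-1.19 ± 0.067; -0.35 with the exon columns), and Bsn was at -0.31 ± 0.056.

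**Figure D4:**
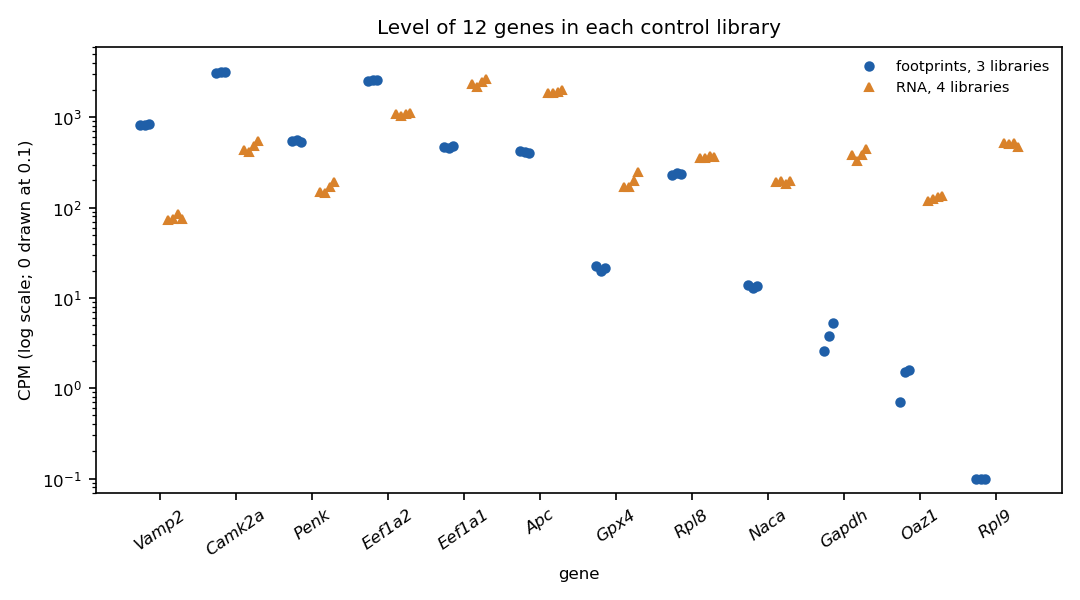
CPM on a log scale of 12 genes in each control library, with blue circles for the 3 footprint libraries and orange triangles for the 4 RNA libraries, and zeros drawn at 0.1. Vamp2, Camk2a, Penk and Eef1a2 have more footprint than RNA CPM in every library, and the 8 genes to their right have less, down to Rpl9 with no footprint.

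Of 23 tested neuropeptide and granin genes, which are secreted by neurons, 9 were called high (39.1%, against 6.79% of all genes) and none low (against 21.5%), with a median of 0.82 that ranged from 0.80 to 0.91 when single libraries were left out. Pdyn, the dynorphin precursor, had 62.5, 68.5 and 58.7 CPM in footprints and 12.6, 11.2, 14.5 and 17.7 CPM in RNA (2.17 ± 0.13). Penk, the enkephalin precursor, had 550.1, 559 and 536 against 148, 146, 168 and 191 CPM (1.75 ± 0.080). Pnoc, the nociceptin precursor, was similar at 1.77 ± 0.16, and the somatostatin relative Cort was the lowest of the list at 0.04 ± 0.34. The RNA levels of the 3 opioid precursors were highest in mouse 8, and the footprint libraries lay above it in each case.

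Extracellular matrix and other secreted neural proteins were called high in 7 of 24 cases (29.2%, against 6.79% of all genes) and low in none (against 21.5%), with a median of 0.59. Sparc, a matricellular glycoprotein, had 704, 714 and 724 CPM in footprints and 199, 179, 199 and 216 CPM in RNA (1.85 ± 0.060). Hapln4, a link protein of perineuronal nets, had 57.8, 63.4 and 64.0 against 15.8, 18.2, 24.2 and 20.1 CPM (1.66 ± 0.12), which was 0.51 with the exon columns. Tenascin C, encoded by Tnc, was the lowest at -0.33 ± 0.13, and at 0.28 with the exon columns. Lysosomal proteins, which enter the same secretory route, had a median of 0.35 with 2 of 27 called high and 1 low, but with the exon columns 6 were high and 2 low, with a median of 0.75.

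Immediate early genes, whose transcription follows neuronal activity, were high in 6 of 20 cases (30%, against 6.79% of all genes) and low in none (against 21.5%), with a median of 0.56. Egr1, a zinc finger factor of that response, had 348, 333 and 374 CPM in footprints and 65.3, 60.6, 61.9 and 116 CPM in RNA (2.21 ± 0.17). Its RNA in mouse 8 was well above the other 3 libraries, and all footprint values were higher still. Ier2 had 16.1, 12.9 and 13.0 CPM in footprints and 2.20, 2.38, 2.11 and 3.11 CPM in RNA (2.49 ± 0.18), and Jun, a subunit of the AP-1 factor, had 78.2, 87.5 and 87.2 against 26.5, 27.9, 26.1 and 25.4 CPM (1.67 ± 0.080; 0.95 with the exon columns). Jund and Nr4a1 were the lowest of the list, at -0.68 ± 0.099 and -0.44 ± 0.27, and the RNA of Nr4a1 was 101 CPM in mouse 8 against 40.7 to 43.9 CPM in the others. The list's summed RNA was 571 to 592 CPM in mice 1, 3 and 6 and 946 CPM in mouse 8. With single libraries left out, 5 to 7 genes of the list were high.

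Energy metabolism was near or above the centre, with single members far below it. Of 20 TCA cycle enzymes 4 were called high (20%, against 6.79% of all genes) and 2 low (10%, against 21.5%), with a median of 0.45, and the exon columns gave 9 high and 1 low (median 0.76). Mdh2, mitochondrial malate dehydrogenase, had 664, 656 and 656 CPM in footprints and 165, 157, 184 and 203 CPM in RNA (1.89 ± 0.074), and Suclg2, a succinyl-CoA ligase subunit, was low with -1.69 ± 0.16. Of 76 nuclear-encoded subunits of the respiratory chain 10 were called high (13.2%, against 6.79% of all genes) and 10 low (13.2%, against 21.5%). Their median was 0.06. Among the 70 that passed the count filter in each assay 10 were high and 4 low, and with the exon columns 24 of 76 were high and 11 low (median 0.61). Uqcrq, a small subunit of complex III, had 326, 323 and 320.1 CPM in footprints and 24.5, 22.6, 27.5 and 27.9 CPM in RNA (3.65 ± 0.073).

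The 3 genes for subunit c of ATP synthase encode the same mature protein and took separate values. Atp5g3 had 1256, 1171 and 1185 CPM in footprints and 223, 224, 203 and 173 CPM in RNA (2.55 ± 0.077). Atp5g1 was low at -7.05, and Atp5g2 had 1 footprint in all against 13.3, 11.6, 19.7 and 23.1 CPM in RNA, a pooled ratio of 0.00376 (interval 9.52e-05 to 0.0209). Near-identical coding sequence can share reads, so these 3 values are uncertain. Cycs, cytochrome c, had no footprint against 47.0, 50.3, 40.7 and 34.9 CPM in RNA and is at least 227-fold lower; RefSeq names 3 pseudogenes after it. The 13 mitochondrially encoded proteins are not in the table of values used here.

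Glycolysis enzymes had a median of 0.20, with 2 of 16 called high (12.5%, against 6.79% of all genes) and 4 low (25%, against 21.5%). Of the 14 that passed the count filter in each assay 2 were high and 2 low (median 0.37). The exon columns gave 5 high and 3 low (median 0.70), and TMM normalization 4 and 4. Eno2, the neuronal enolase, had 1593, 1617 and 1595 CPM in footprints and 769.7, 723, 705 and 666 CPM in RNA (1.16 ± 0.053). Gapdh, often taken as a reference gene, had 2.61, 3.74 and 5.34 CPM in footprints and 384, 326, 386 and 442 CPM in RNA (-6.58 ± 0.16). Pgk1 was lower again, with 4 footprints in all against 203, 181, 169 and 142 CPM in RNA (-9.33 ± 0.27). RefSeq names 3 pseudogenes after Gapdh and 2 after Pgk1, and of the 10 enzymes with none 1 was called low, with a list median of 0.60.

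Of 41 SR proteins and hnRNPs, RNA-binding proteins of splicing, 12 were called high (29.3%, against 6.79% of all genes) and 10 low (24.4%, near the 21.5% of all genes), with a median of 0.24. Hnrnpd, which binds AU-rich elements, had 349, 362 and 329.9 CPM in footprints and 41.8, 42.6, 43.0 and 28.9 CPM in RNA (3.15 ± 0.104). Hnrnpa2b1, known for RNA granule transport, had 975, 920.5 and 874 against 246, 243, 185 and 129 CPM (2.20 ± 0.16), with RNA of mouse 8 the lowest in both genes. Srsf3, a splicing factor that regulates its own mRNA, was the lowest, with 3.08, 1.53 and 1.96 CPM in footprints and 25.8, 26.4, 25.9 and 23.7 CPM in RNA (-3.59 ± 0.18).

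Of 21 tubulin, actin and related genes 7 were called high (33.3%, against 6.79% of all genes) and 4 low (19.0%, near the 21.5% of all genes). Tubb4a, a neuronal and oligodendrocyte beta-tubulin, had 1722, 1724 and 1723 CPM in footprints and 455, 427, 455 and 408 CPM in RNA (1.98 ± 0.051), while Actg1, cytoplasmic gamma-actin, had 0.948, 1.70 and 1.07 against 186, 172, 183 and 214 CPM (-7.20 ± 0.16). The microtubule regulator Stmn1 was low too, at -6.22 ± 0.14. Of 31 chaperones 3 were called high (9.68%) and 6 low (19.4%), and of the 27 that passed the count filter in each assay 3 were high and 4 low (median 0.42). Pdia3, a disulfide isomerase of the endoplasmic reticulum, had 563, 561 and 563 CPM in footprints and 183, 178, 184 and 152 CPM in RNA (1.69 ± 0.065). The cyclophilin Ppia had 0, 0.680 and 0.178 against 717, 705, 688 and 623 CPM (-11.00 ± 0.18), and the constitutive Hsp70 gene Hspa8 had 236, 236 and 251 against 1705, 1653, 1452 and 1432 CPM (-2.70 ± 0.072). Proteasome subunits sat at 0.05, with 2 of 31 called high (6.45%, against 6.79% of all genes) and 4 low (12.9%, against 21.5%). Among these were Psmd7 (1.43 ± 0.078) and Psma3 (-2.57 ± 0.11). With the exon columns 12 proteasome subunits were high and 3 low (median 0.73), and 12 chaperones were high and 8 low.

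Broad membrane and adhesion families lay near the centre. The 230 solute carriers had a median of -0.05, with 20 called high (8.70%, against 6.79% of all genes) and 34 low (14.8%, against 21.5%). TMM normalization gave 26 and 22, where it called 1405 high and 2325 low among all 13482 genes. With glmTreat the counts were 8 and 19, against 534 and 1996 among all genes. The 189 genes with Tmem symbols had -0.13, with 19 high (10.1%, against 6.79% of all genes) and 35 low (18.5%, against 21.5%). Of the 169 that passed the count filter in each assay 23 were low, the exon columns gave 12 high and 49 low, and glmTreat gave 7 and 18. Clustered protocadherins, neuronal adhesion proteins, kept a narrow range around 0.26. Of 56, 2 were called high (3.57%, against 6.79% of all genes) and 1 low (1.79%, against 21.5%). However, 30 of these protocadherins were called high with the exon columns and 9 with TMM normalization. Many of them overlap one another in the genome, which makes single members uncertain. Replication histones had a median of -0.44, with 15 of 51 low (29.4%, against 21.5% of all genes) and 1 high (1.96%, against 6.79%). The median was -0.11 among the 36 that passed the count filter in each assay. The exon columns gave 10 high and 7 low and a median of 0.34. Rik clone genes were at -0.43, with 88 of 338 low (26.0%, against 21.5% of all genes tested) and 13 high. Of the 276 that passed the count filter in each assay 54 were low, with a median of -0.26. Among all 11952 genes that passed it, 2157 were low, with a median of -0.125. TMM normalization gave 76 low and 22 high, and the exon columns 115 low and 13 high. The 15 clock genes centred on 0.03, with the repressor Nr1d1 high (1.49 ± 0.061) and Per3 low (-2.02 ± 0.14).

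The single genes with the highest ratios, among those with at least 5 CPM in RNA, were named by rank. BC048546 had 23012, 25545 and 23621 CPM in footprints and 6.21, 5.38, 5.78 and 6.23 CPM in RNA, a ratio of 4078 (11.99 ± 0.076). Iffo2, an intermediate filament family gene, came next with 737, 932 and 891 against 18.8, 20.3, 17.6 and 16.2 CPM (5.55 ± 0.094). Prrt1, a partner of AMPA receptors, had 185, 184 and 201 against 9.31, 8.28, 10.7 and 11.2 CPM (4.26 ± 0.090). Taf15, an RNA-binding protein, had 148, 143 and 123 CPM in footprints and 22.8, 20.9, 18.6 and 13.2 CPM in RNA (2.87 ± 0.13). BC068157 (3.42 ± 0.11), the GTPase Rraga of amino acid sensing (3.2 ± 0.070) and the dynein light chain Dynll2 (3.15 ± 0.061) were also among the 12, with Uqcrq, Vamp2, Hnrnpd and Sncb. Overlap with a neighbour makes several named values uncertain. In RefSeq, Prrt1 overlaps Ppt2, Uqcrq overlaps Gdf9 and Hnrnpd overlaps 4930524J08Rik, and the same holds for Shank1, Grin1, Grik5, Gabra4, Eif5b, Ppp1r15a, Slc35a4, Txnrd2, Kif5a, Kif2a, Pdia3, Alas2, Nr1d1, Per3, Syn1 and Aars with other protein-coding genes. Without knowing whether counting used strand, reads of such pairs cannot be told apart.

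The lowest, among genes with at least 20 CPM in RNA, held ribosomal protein genes (among them Rpl9, Rpsa, Rpl15, Rps29 and Rpl38), Cycs and 5 others without any footprint. Tmsb10, an actin-binding thymosin, had 135, 119, 126 and 131 CPM in RNA and was at least 669.8-fold lower. H2afz, a histone variant, had 89.5, 96.8, 97.4 and 93.9 CPM and was at least 495-fold lower. Ppp1cc, a catalytic subunit of protein phosphatase 1, had 61.4, 57.8, 60.1 and 64.5 CPM and was at least 319.5-fold lower. The chemokine-binding receptor Darc and the chaperone partner Ptges3 were at least 278 and 198-fold lower. The RefSeq table names 1 pseudogene after Ptges3 and none after Tmsb10 or Ppp1cc, while the symbols H2afz and Darc are not in it and were not looked up.

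Ratios also moved with how much of a gene's RNA the plain columns held. Genes were divided into 5 equal groups by the plain RNA count as a percentage of the exon-column count. That RNA count is also the denominator of the ratio, so part of a negative relation is built in, and the same holds for the RNA level. In the lowest group, where this percentage had a median of 30.3%, the median log2 ratio was 0.11, with 11.9% called high and 15.5% low. In the highest group, with a median percentage of 92.7%, it was -0.45, with 3.26% high and 29.4% low. Gene span moved in the same direction: the shortest of 5 groups by RefSeq span had a median of 0.04 and the longest -0.42. RNA level made less difference, from -0.13 in the lowest to -0.25 in the highest group. Across genes the log2 ratio had a Pearson r of -0.167 and a Spearman rho of -0.189 with the percentage, -0.0306 and -0.149 with log2 span, and -0.0435 and -0.0471 with log2 RNA CPM. Their part in the family differences was not tested.

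**Figure D5:**
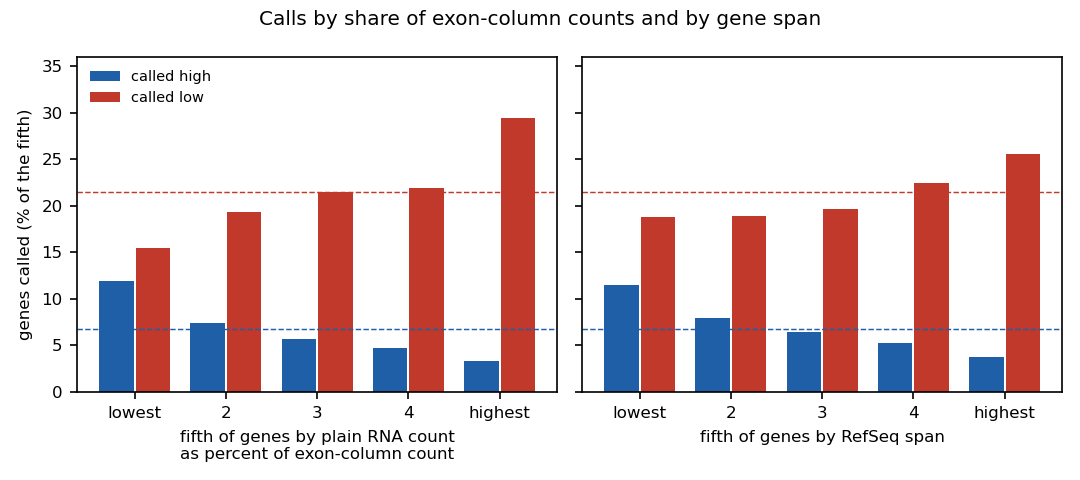
Bars give the percentage of genes called high (blue) or low (red) in 5 equal groups of genes, ordered on the left by the plain RNA count as a percentage of the exon-column count and on the right by gene span in RefSeq; dashed lines are the percentages over all genes tested (6.79 and 21.5). Calls of high ratio fall and calls of low ratio rise from left to right in both panels.

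Cell type markers were compared because a lysate of whole cortex holds every cell type. In such bulk samples fewer cells of a type and less RNA per cell cannot be told apart. The 8 excitatory neuron markers had a median of -0.03, the 8 inhibitory ones 0.75, the 8 of oligodendrocytes 0.76, of astrocytes 0.39, of microglia 0.27 and of endothelium 0.07. Slc32a1, the vesicular GABA transporter, had 254, 241 and 255 CPM in footprints and 51.8, 53.5, 61.1 and 57 CPM in RNA (2.16 ± 0.066). Its excitatory counterpart is Slc17a7, the vesicular glutamate transporter. Slc17a7 had 922, 897 and 922 CPM in footprints and 1381, 1377, 1531 and 1492 CPM in RNA (-0.66 ± 0.052). Slc32a1 was the highest inhibitory marker and Slc17a7 among the lowest excitatory ones, while Camk2a, the highest excitatory marker, was at 2.76 ± 0.081. Gja1, the astrocyte connexin, had 401, 389.8 and 401 against 98.2, 98.4, 108 and 107 CPM (1.95 ± 0.057), and Mbp, a myelin protein, had 2066, 2159 and 2169 against 807, 785, 715 and 765 CPM (1.47 ± 0.051; 0.11 with the exon columns). In this fit 11 of these markers were called high: 2 excitatory, 2 inhibitory, 3 of oligodendrocytes, 1 of astrocytes and 3 endothelial. The only low call was 1 endothelial marker. No microglial marker was called high, but 8 markers are too few to set this apart from the 6.79% of all genes. With the exon columns 2 microglial markers were high and no oligodendrocyte marker was.

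Some markers varied between RNA libraries. Alas2, the haem enzyme of red cell precursors, had 6.63, 7.14 and 7.11 CPM in footprints and 26.9, 27.6, 72.7 and 47.1 CPM in RNA (-2.63 ± 0.37), and was called low with each library left out in turn. Ttr had 2.61, 3.74 and 4.80 CPM in footprints and 3.30, 3.0, 9.68 and 263 CPM in RNA, and its log2 ratio of -4.20 ± 1.598 became -0.46, with an adjusted p of 0.255 in edgeR's test, without RNA of mouse 8. Leaving out the footprints of mouse 1, 3 or 9 gave -4.04, -4.19 and -4.42, and none of these passed the threshold. The endothelial genes Cdh5 and Pecam1 were at 1.16 ± 0.18 and -1.02 ± 0.196, and Pecam1 was no longer called without the footprints of mouse 3 (-0.83), the RNA of mouse 1 (-0.92) or the RNA of mouse 3 (-0.95). Between 1 and 3 endothelial markers were called high when single libraries were left out, and none with mouse as a block, where Cdh5 was at 0.94 and the list's median at -0.19, or with glmTreat. Hypothalamic peptide genes were detected at low levels, and their 5 tested markers summed to 33.9 to 64.8 CPM in RNA and 92.0 to 102 CPM in footprints.

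KO libraries, which share no sample with the controls, gave a second set of values, printed here for 8 lists. On the scale of log2(CPM + 0.1), medians in control and KO were -6.11 and -5.76 for ribosomal proteins and -1.02 and -1.02 for Zfp genes. For vesicle and release proteins they were 0.98 and 0.94, and for neuropeptides 0.82 and 1.10. Among lists of at least 8 tested genes the difference was largest for polyamine genes, at -2.19 and -1.64. It was next largest for immediate early genes, at 0.56 and 0.98. FMRP targets had -0.43 and -0.77, and the respiratory chain had 0.07 and 0.34. These differences between list medians were not tested. A test of the difference between genotypes called 921 of the 13482 genes (6.83%). Among the genes named here it called 29 of 126, many of which were named for extreme values in the same control libraries. Across 11952 genes the log2 ratios of the 2 genotypes had a Pearson r of 0.947 and a Spearman rho of 0.943.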

How the data were processed

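Ribosome footprints and RNA were sequenced from mouse cortex, and the files hold whole-number read counts per gene as deposited by the authors. The submitters' processing notes name Bowtie2, STAR 2.5, featureCounts and Subread 1.4.6, and the builds mm9 and mm10, with no role for each. The annotation, the strand setting and the region behind the columns with and without an exon suffix are not given in the sources used here. The plain columns were used for RNA, and exon columns as an alternative. Of 23412 genes in the table, 20563 had values, and 27 with names turned into dates were not named.

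Counts were divided by library totals without BC048546. The 7 control libraries were fitted with edgeR 4.0.16 (R 4.3.3), with assay as the only term, for the 13482 genes that passed filterByExpr at a minimum count of 10. The quasi-likelihood F test was two-sided with Benjamini and Hochberg's adjustment. P-values measure the spread between these libraries. A gene without footprints was given a limit of 3 counts over the 3 footprint libraries, and limits and intervals cover counting error only. Tested on simulated counts for 13334 genes, the fit recovered 100% of 50 genes at each log2 change of -3, -2, 2 and 3. It called 0 of 13134 unchanged genes. No smaller change was simulated, so recovery near the thresholds is not known. A call also required a ratio past the high or low threshold, so the absence of calls does not measure errors at smaller differences. These shares hold for the simulated spread alone and are not error rates for the real libraries.

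Named are the 12 genes called high with the largest ratio (RNA of at least 5 CPM) and the 12 called low with the smallest (RNA of 20 CPM or more), both with footprint and RNA libraries fully apart, up to 3 at each end of each list, Fmr1, Rpl22 and BC048546. Atf4, Syn1, Eif3f, Rpl7a and Atp5g1 were singled out after their values were seen. Some genes that the rule picks are not reported here. The members and lists were chosen with earlier results of these data known. Pseudogenes were counted by RefSeq symbols that add "-ps" to a gene's name, and 12595 tested symbols (93.4%) matched RefSeq.

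Mouse numbers 1 and 3 occur in both assays and the same number was read as the same animal. The deviations of their footprint and RNA libraries from the group means had correlations of 0.00432 and 0.0357 across genes. Alternatives were TMM, totals with BC048546, DESeq2 1.42.0, glmTreat, other count filters, exon columns, each library left out, mouse as a block and a fit over all 14 libraries. Keeping genes past the filter in both assays, and genes without a named pseudogene, were added after seeing the data.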

Additional observations from a re-analysis of the deposited data

Results flagged for a closer look

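Among 127 sets of 4 control RNA values examined, 7 had 1 library far from the other 3, and chance alone gives such a gap in about 1 of 20 sets. RNA of mouse 8 was that library for Ttr (263 CPM against 3.0 to 9.68 CPM), Egr1 (116 CPM against 60.6 to 65.3 CPM), Nr4a1 (101 CPM against 40.7 to 43.9 CPM) and Hnrnpd (28.9 CPM against 41.8 to 43.0 CPM). RNA of mouse 6 was the highest for Vamp2 (84.0 CPM against 73.2 to 74.8 CPM) and Rpl8 (376 CPM against 357 to 361 CPM). Suclg2 was highest in RNA of mouse 1 (17.7 CPM against 14.6 to 15 CPM).

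The ratio differed between control and KO libraries, by the interaction of assay and genotype in edgeR's quasi-likelihood test over all 13482 genes, in 29 of the 126 genes named, against 921 genes (6.83%) overall. Differences are log2 values, control minus KO. BC048546 had a difference of 10.6, with ratios of 4080 and 2.69 and an adjusted p of 2.07e-22. Fmr1, the gene deleted in the KO mice, had 1.98, with ratios of 1.37 and 0.35 (adjusted p = 7.88e-07). Camk2a had 0.864, with ratios of 6.78 and 3.72 (adjusted p = 4.72e-05). Iffo2 went the other way with -1.28, from ratios of 46.9 and 114 (adjusted p = 1.85e-05). The ratio was also higher in controls for Prrt1 (0.68), Vamp2 (0.305), BC068157 (0.733), Dynll2 (0.587), Taf15 (0.575), Rims1 (0.5), Bsn (0.53), Shank1 (0.729), Grik5 (0.446), Eif3a (0.56), Eif5b (0.714), Dnmt3a (0.384), Chd3 (0.309), Apc (0.362), Kif5a (0.578), Slc32a1 (0.551) and Syn1 (0.506). It was lower in controls for Rpl8 (-0.336), Rps9 (-0.346), Rps3 (-0.405), Impdh2 (-1.15), Naca (-0.776), Sephs2 (-0.464), Srsf3 (-1.36) and Stmn1 (-1.08).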

How the results depend on the processing

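Over the alternatives the genes called high numbered 1405 with TMM, 1406 with DESeq2, 1477 with the exon columns, 534 when glmTreat tested against a ratio of 2 and 608 with a mean RNA count of at least 100, against 915. The genes called low stayed within 1.5 times of 2897 in every alternative run. The members changed more than these totals. With the exon columns, 559 of the 915 genes called high and 2041 of the 2897 called low kept their call. Leaving out 1 library gave 893 to 947 high and 2766 to 2929 low. TMM raised the median of all genes by 0.18. With mouse as a replicate block, which keeps mice 1 and 3 alone, 1003 genes were high and 2820 low, and 824 and 2622 of these were shared with the fit without it. Of 126 named genes, 23 gained or lost a call, or turned direction from a call, in at least 1 alternative, 18 of them with the exon columns. Direction turned from a call for Cplx2 (-0.22) and Oaz1 (1.91) with the exon columns and for Ttr (0.0388) under the replicate block. Genes without a call also turned: Rpl8, Dnmt3a, Slc7a1 and Tnc with the exon columns, Nr4a1 under the block and Cort in some fits without 1 library. Relative to the median of all genes, 12 of 49 lists changed sign in at least 1 alternative, among them other TOP mRNAs and histones with the exon columns. In some lists with few calls (GABA-A receptors, glycolysis enzymes, lysosomal proteins, protocadherins, histones and the excitatory and endothelial markers) calls were gained or lost when 1 library was left out. The causes were not tested. Depth limits the lowest ratios, since 1171 tested genes had under 30 footprints in all and 49 had none.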
